A study of Mus musculus with 18 samples.

Results

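The synaptic vesicle and active zone genes described here are 58 mouse genes of the presynaptic release machinery, chosen by symbol from the 55421 genes of a read count table of the striatum. Their Ensembl identifiers were matched to the symbols, and all 58 were found. The table covered 18 mice aged 12 to 14 months on a C57BL/6 background, with 1 library per mouse: 5 WT, 5 zQ175, 3 CK2a'(+/-) and 5 zQ175:CK2a'(+/-). zQ175 mice carry an expanded CAG repeat knocked into the full-length huntingtin gene and are a model of Huntington's disease. CK2a'(+/-) mice have lost 1 allele of Csnk2a2, which encodes the CK2a' catalytic subunit of the protein kinase CK2, and zQ175:CK2a'(+/-) mice carry both changes. Per the study's methods, the CK2a' line came from a mixed 129/SvEv-C57BL/6J stock and was bred repeatedly to WT and zQ175 mice, so that the mice used were on C57BL/6J. The zQ175 mice were heterozygous for the knock-in. No drug treatment is given for any group. Per the study's methods both sexes were used, with mostly females in WT and zQ175:CK2a'(+/-) and mostly males in zQ175 and CK2a'(+/-), and the labels give no sex for a library.

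At a chemical synapse, neurotransmitter is stored in vesicles that dock at the active zone, a protein scaffold on the presynaptic membrane. Priming factors bring the SNARE proteins of vesicle and plasma membrane together, synaptotagmins trigger fusion when calcium enters, and endocytic proteins retrieve the vesicle membrane. The striatum is made up mostly of GABAergic projection neurons and receives glutamatergic axons from cortex and thalamus, whose messages for presynaptic proteins are largely made in cell bodies outside the striatum. The comparisons ask how the transcripts of this machinery differ with the zQ175 allele and whether they differ with the number of CK2a' alleles.

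Total counts per library ran from 13612381 to 22702547 (median 18005044), and the 58 genes took 1.06% to 1.37% of them. Levels are in CPM, a gene's counts relative to the TMM-adjusted total of its library, or as RPKM, the same value divided by the kilobases of exon in the count table. Csnk2a2 was at 29.4 to 37.5 CPM in the 10 mice with both CK2a' alleles and at 14.7 to 19.9 CPM in the 8 mice with 1, without overlap. The summed level of 12 striatal projection neuron markers, all of which passed the filter on low counts, was 2940 to 6940 CPM in WT, 1610 to 3260 in zQ175, 4910 to 6870 in CK2a'(+/-) and 2690 to 3810 in zQ175:CK2a'(+/-) libraries. Oligodendrocyte markers (6 genes) summed to 5400 to 7460 CPM in WT and 3520 to 5300 in zQ175, 5590 to 7020 in CK2a'(+/-) and 4020 to 5420 in zQ175:CK2a'(+/-) libraries. Cholinergic and GABA interneuron markers (8 genes) summed to 295 to 344 CPM in WT and 164 to 281 in zQ175, 319 to 341 in CK2a'(+/-) and 240 to 309 in zQ175:CK2a'(+/-) libraries. Both sums were lower in zQ175 than in WT without overlap, and their part in the differences below was not tested. In these bulk samples, fewer cells of a type and less RNA per cell cannot be told apart.

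Some libraries stood apart in markers of cells outside the striatum. In zQ175 replicate 1 the summed level of 8 thalamic neuron markers was 1410 CPM, against 117 to 685 CPM in the other 17 libraries, and it had the lowest projection neuron sum (1610 CPM). In zQ175 replicate 5 the sum of 12 markers of cortical or hippocampal glutamatergic neurons was 598 CPM, with 9 of the 12 highest in that library of all 18, among them Slc17a7 at 202 and Neurod6 at 45.7 CPM, and with Rorb (40.3 CPM) and Cux2 (23.8 CPM) at the low end. That sum was 191 to 306 CPM in WT, 264 to 331 in the other zQ175 libraries apart from replicate 1 (476), 157 to 329 in CK2a'(+/-) and 227 to 349 in zQ175:CK2a'(+/-) libraries. Emx1, a defining cortical gene of that list, had no count in 5 of the 18 libraries. Choroid plexus markers exceeded 100 CPM in 4 libraries, WT replicates 1 and 3, CK2a'(+/-) replicate 1 and zQ175:CK2a'(+/-) replicate 2. The part these markers play in the results below was not tested, and counts without those libraries are given for the comparisons.

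Across the 18 libraries, the 4 most abundant transcripts per kilobase belonged to the fusion machinery. Cplx2, a complexin that binds the assembled SNARE complex, averaged 172 RPKM, and the plasma membrane SNARE Snap25 averaged 158 RPKM. Cplx1 followed at 129, the vesicle SNARE Vamp2 at 120 and Dnm1, the dynamin that cuts vesicles from the membrane during endocytosis, at 113 RPKM. In WT, zQ175 and zQ175:CK2a'(+/-) mice the library ranges of Cplx1, Vamp2 and Dnm1 overlapped, so their order was not resolved there. In CK2a'(+/-) mice Dnm1 (103 to 112 RPKM) lay below Cplx1 (118 to 158 RPKM). Syn1, a synapsin that tethers vesicles to each other and to actin, averaged 93.7 RPKM and Syt1, a calcium sensor of fast release, 76.2 RPKM. Syt11, a synaptotagmin that does not bind calcium, and the vesicle membrane protein Syp (synaptophysin) each averaged 73.5 RPKM.

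Bsn (bassoon) averaged 43.1 and Pclo (piccolo) 38.9 RPKM, beside 42.6 RPKM for the priming factor Unc13c. Rab3c was the higher of the Rab3 GTPases tested, vesicle proteins that bind the scaffold, at 28.2 RPKM. At the other end, Doc2a averaged 0.844, Cplx3 0.671 and Rims1 0.217 RPKM. Rims1 rested on 526 counts in all 18 libraries together. Within families the levels lay far apart. Rims2 averaged 23.9 RPKM against 9.20 for Rims3 and 5.42 for Rims4, and Unc13a averaged 23.5 RPKM against 1.53 for Unc13b.

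**Figure D1:**
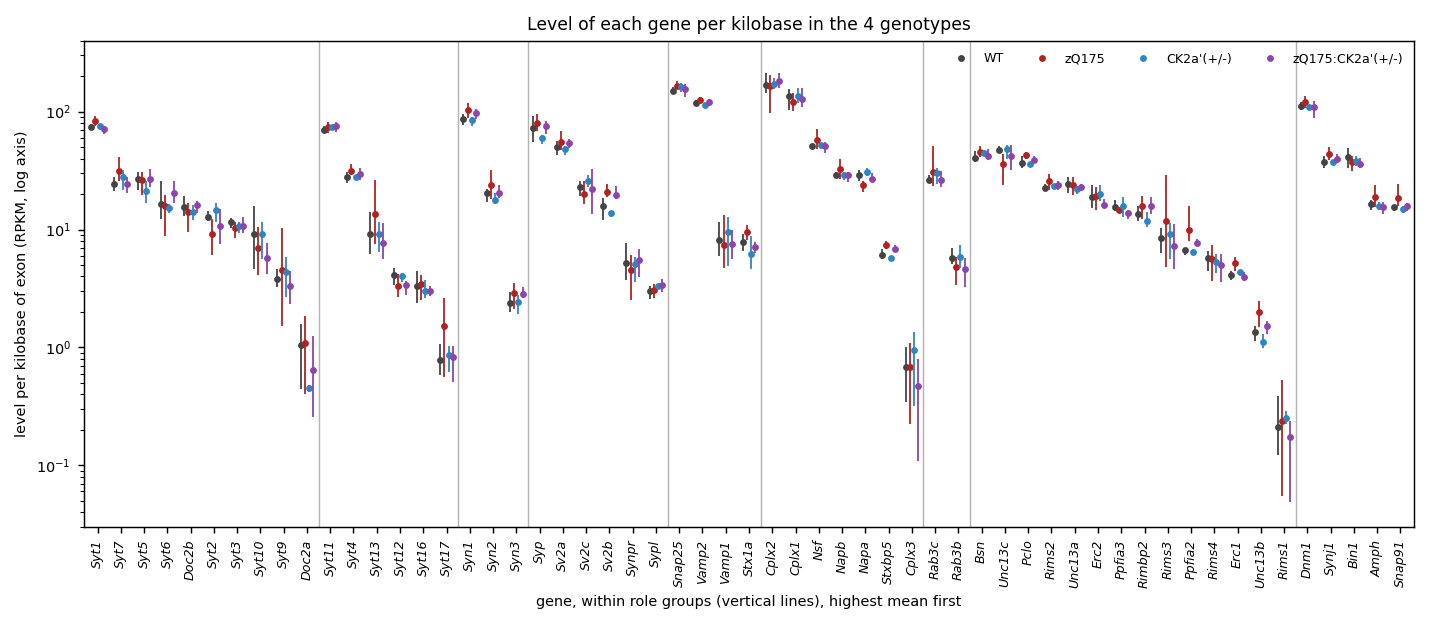
The plot of levels shows, on a log axis, the RPKM of the 57 genes tested, by role, with a point for the mean of each genotype and a line from its lowest to its highest library. The order within each role group was set by the mean over 18 libraries, and the genes run from Cplx2 at 172 to Rims1 at 0.217 RPKM.

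Rab3a, the main Rab3 of brain synapses, could not be given a level. It held 103 counts in all, of which 63 came from WT replicate 2, and it was the only one of the 58 genes left out by the filter on low counts. The gene (chr8:70754679-70758677, GRCm38, plus strand) lay in a run of 17 neighbouring genes, from Jund to A230052G05Rik over 166 kb of chromosome 8, that held 2740 counts together and of which 7 had none. The median of those genes was 2.97 counts per kilobase, against 1204.5 for the others of the 53 neighbouring genes examined. Low counts were thus shared along the stretch, and no level of Rab3a is drawn from them.

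With the zQ175 allele alone, 3 of 57 genes rose against WT, all of them active zone genes, and none fell. Unc13b (Munc13-2), which primes vesicles, was 1.49-fold higher, Ppfia2 (liprin-alpha-2), an organiser of the presynaptic scaffold, was 1.49-fold higher, and Erc1 (ELKS), a scaffold protein that binds RIM, was 1.26-fold higher. Over all 20914 genes tested, 1.10% passed in either direction, 0.387% higher and 0.712% lower. The test was edgeR's quasi-likelihood test with Benjamini-Hochberg adjustment over all genes, and a gene passed at an adjusted p (FDR) under 0.1.

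Unc13b (chr4:43058953-43264871, GRCm38, plus strand) was at 28.5, 28.3, 25.9, 34.4 and 34.8 CPM in the WT libraries and at 56.9, 37.9, 46.1, 34.2 and 51.9 CPM in the zQ175 libraries. The highest 3 zQ175 values were replicates 1, 5 and 3, and replicate 4 lay within the WT range. The difference was 0.58 ± 0.129 on the log2 scale (SE, n = 5 and 5, edgeR adjusted p = 0.0594). Ppfia2 (chr10:106470339-106935952, plus strand) was at 74.9, 75.2, 66.0, 73.4 and 75.3 CPM in WT and at 87.6, 89.7, 101, 91.3 and 173 CPM in zQ175 libraries. Every zQ175 library was above every WT library, and replicate 5 stood far above the other 4. Its log2 difference was 0.57 ± 0.136 (edgeR adjusted p = 0.0713), and 0.34 without zQ175 replicate 5 (adjusted p = 0.106, from 0.00733 to 0.498 over the alternatives).

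Erc1 (chr6:119570796-119848167, minus strand) was at 60.5, 70.4, 68.0, 72.9 and 63.9 CPM in WT and at 88.3, 74.9, 94.7, 72.1 and 93.9 CPM in zQ175 libraries. Replicate 4 of zQ175 lay just under the highest WT library and the other 4 above it. The log2 difference was 0.34 ± 0.084 (edgeR adjusted p = 0.0827). Parts of these transcripts are shared with genes on the opposite strand, 22.3% of the exon length of Ppfia2 with Acss3 (813 counts in all) and 11.8% of that of Erc1 with Gm44317 (18 counts). Whether counting used the strand is not given in the sources used here.

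The 250 bases before the RefSeq start of these 3 genes are shown because they were the ones that passed in zQ175 against WT. The sequences are from RefSeq on GRCm38.p6, written 5' to 3' in the direction of transcription, and capitals mark the letters GGGCGG of the GC box on either strand.
Unc13b, chr4:43058703-43058952, plus strand: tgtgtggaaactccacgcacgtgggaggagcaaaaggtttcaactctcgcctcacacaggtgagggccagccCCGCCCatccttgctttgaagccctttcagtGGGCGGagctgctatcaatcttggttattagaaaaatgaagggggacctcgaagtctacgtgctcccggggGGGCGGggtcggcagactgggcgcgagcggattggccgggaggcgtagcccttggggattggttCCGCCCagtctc
Erc1, chr6:119848151-119848400, minus strand: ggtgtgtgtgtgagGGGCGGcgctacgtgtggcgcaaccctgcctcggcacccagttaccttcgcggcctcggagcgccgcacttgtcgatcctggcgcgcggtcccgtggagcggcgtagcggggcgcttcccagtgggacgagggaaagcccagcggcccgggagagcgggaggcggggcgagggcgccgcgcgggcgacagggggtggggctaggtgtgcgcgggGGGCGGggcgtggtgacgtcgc
Ppfia2, chr10:106470060-106470309, plus strand: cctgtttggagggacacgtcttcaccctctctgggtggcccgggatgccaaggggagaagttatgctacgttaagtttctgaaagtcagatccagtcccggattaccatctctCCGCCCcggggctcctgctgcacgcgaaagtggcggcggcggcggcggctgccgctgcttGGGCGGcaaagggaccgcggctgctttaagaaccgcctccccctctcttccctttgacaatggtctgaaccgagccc

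The window of Unc13b held 4 such matches and those of Erc1 and Ppfia2 held 2 each. None of the 3 windows held the letters TATAAA or the full cyclic AMP response element TGACGTCA, both searched on either strand. The windows were rich in C and G, at 60.8% in Unc13b, 76.0% in Erc1 and 62.4% in Ppfia2. Over the 44 of the 58 genes that matched a RefSeq window (56 windows), the median was 62.4%, against 52.4% over all 32851 promoter windows. GGGCGG was in 64.3% of the 56 windows and in 32.7% of all windows, TATAAA in 5.36% and 12.4%, and TGACGTCA in 1.79% and 1.55%. A match is a description of the letters and not of a bound factor.

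**Figure D2:**
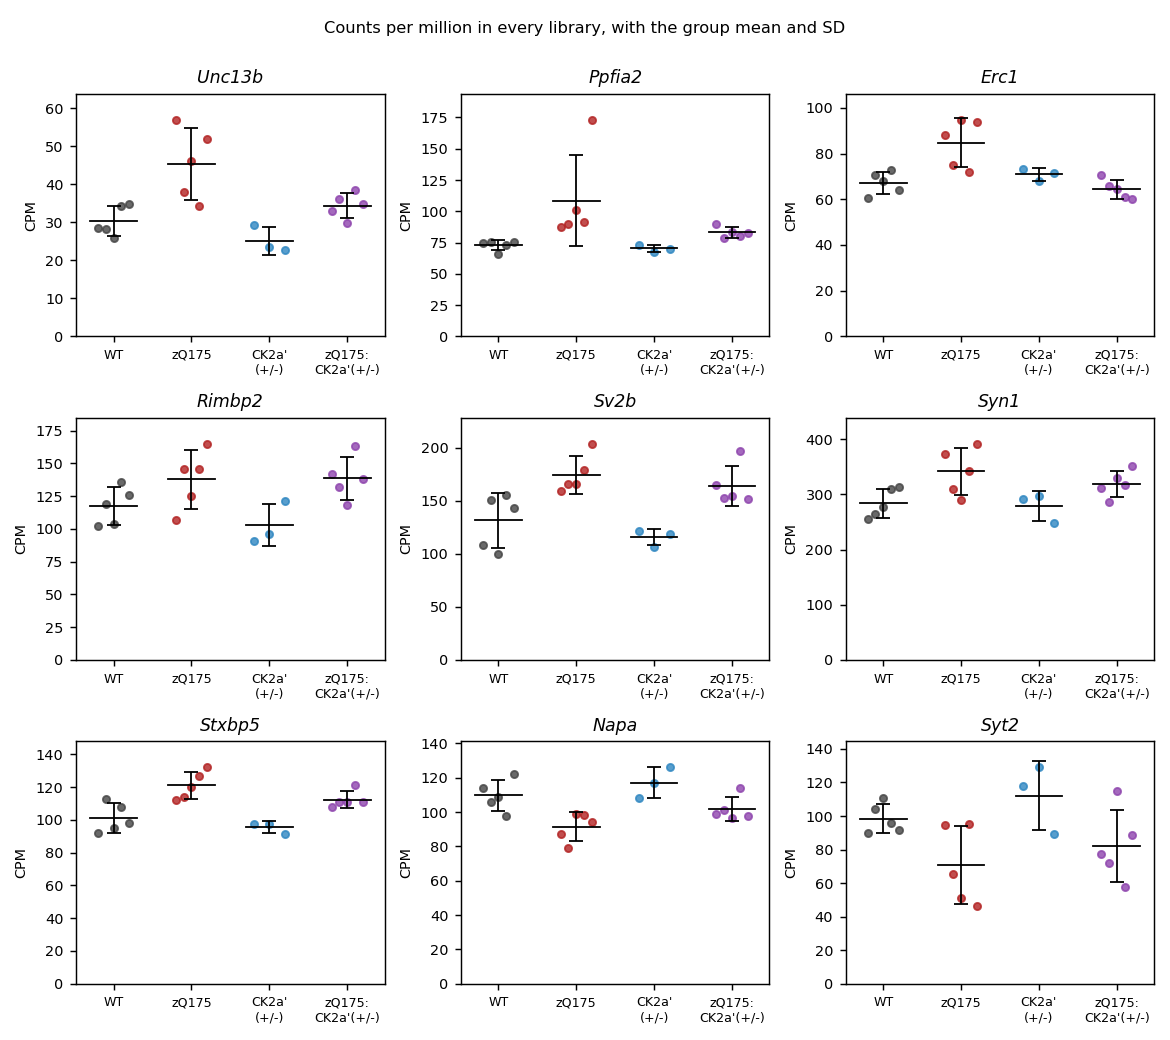
The plots of library values show the CPM of 9 genes in each of the 18 libraries, as points by genotype, with the group mean and SD in black and axes from 0. Ppfia2 separated zQ175 from WT without overlap, with 173 CPM in zQ175 replicate 5, and Napa and Syt2 had lower means in zQ175 than in WT.

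The 3 calls depended on single libraries. Without zQ175 replicates 1 and 5 together, 0 of the 57 genes and 0 of all genes passed, and the log2 differences were 0.37 for Unc13b, 0.36 for Ppfia2 and 0.26 for Erc1 (edgeR adjusted p = 0.319, 0.245 and 0.336). Over all alternatives the adjusted p of Unc13b ran from 0.00494 to 0.498, that of Ppfia2 from 0.00733 to 0.498 and that of Erc1 from 0.0173 to 0.545. None passed without WT replicate 1, WT replicate 3 or zQ175 replicate 5, 1 passed without zQ175 replicate 1 and 7 without WT replicate 2. Over all genes the counts were 10, 0, 0, 77 and 587 in the same order, against 230 with all libraries. With the Xist level, a transcript of female cells, as a covariate, 1 of the 57 genes and 156 of all genes passed. Without the 4 libraries with choroid plexus markers, 0 of the 57 genes and 1 of all genes passed, with log2 differences of 0.48 for Unc13b, 0.54 for Ppfia2 and 0.30 for Erc1. DESeq2 called 9 of the 57 genes and 855 of all genes with all libraries.

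At an unadjusted p under 0.05, 16 of the 57 genes were higher and 4 lower in zQ175 than in WT, which is 35.1% against 13.9% of all genes tested. The median log2 difference over the 57 genes was 0.14, against 0.00 over all genes, with 37 genes above 0 and 20 below. Without zQ175 replicates 1 and 5 the median was 0.04. In those libraries the median gene of the set stood 0.16 and 0.20 above the WT mean on the log2 scale, against 0.04 to 0.07 in the other 3 zQ175 libraries.

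The 16 higher genes came from several role groups, with 6 of them in the active zone and none among the SNAREs or Rab3 genes. At an unadjusted p under 0.05, 1421 of all 20914 genes tested were higher and 1485 lower. Of the 14 active zone genes, 6 were higher at that threshold and 1 was lower, with a median log2 difference of 0.17. Beside the 3 that passed, these were Pclo (0.22 ± 0.072, adjusted p = 0.166), Rims2 (0.17 ± 0.078, adjusted p = 0.332) and Bsn (0.17 ± 0.080, adjusted p = 0.354). RIM proteins recruit calcium channels and vesicles, and bassoon and piccolo hold the vesicle cluster at the release site. The lower gene was Unc13c (Munc13-3), at 414, 454, 418, 390 and 390 CPM in WT and 271, 379, 336, 385 and 208 CPM in zQ175 libraries. All 5 zQ175 values were below the WT values, with replicates 5 and 1 lowest, and the log2 difference was -0.39 ± 0.145 (adjusted p = 0.225). Over all genes, 1.26% separated these groups upward and 1.19% downward.

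The 3 Munc13 genes, which share the priming function, thus had different values in the same libraries. Unc13b was higher in zQ175, Unc13c was lower without passing the test, and Unc13a differed by -0.02 ± 0.093 (95% interval from -0.21 to 0.17 on the log2 scale). ELKS genes differed likewise, with 0.34 for Erc1 and 0.05 ± 0.126 for Erc2. Of the liprins, Ppfia3 differed by -0.06 ± 0.091 beside 0.57 for Ppfia2. The differences between paralogs were not tested.

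On the vesicle itself, no gene passed by edgeR in zQ175 against WT. Sv2b, a glycoprotein of the vesicle membrane, was at 108, 151, 100, 156 and 143 CPM in WT and at 159, 166, 166, 179 and 204 CPM in zQ175 libraries. All zQ175 values were above all WT values, though the nearest of them lay within 3 CPM of each other. The log2 difference was 0.41 ± 0.113 (edgeR adjusted p = 0.110), and DESeq2 called it (adjusted p = 0.0294, from 0.0294 to 0.639 over the alternatives). The lowest WT values were those of replicates 1 and 3, and without the choroid plexus libraries the difference was 0.22. Its paralogs Sv2a and Sv2c differed by 0.14 ± 0.103 and -0.18 ± 0.160. The 3 synapsins were all above 0, with 0.27 ± 0.091 for Syn1, 0.23 ± 0.120 for Syn2 and 0.29 ± 0.129 for Syn3. Syn3 shares 14.1% of its exon length with Timp3 on the opposite strand, which had 31494 counts against 10471 for Syn3.

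None of the 4 SNAREs passed or had an unadjusted p under 0.05. Vamp2 was at 450 ± 17.6 CPM in WT and 476 ± 24.9 CPM in zQ175 (SD, n = 5 each), a log2 difference of 0.08 with a 95% interval from -0.05 to 0.21. Snap25 was at 1030 ± 60.7 and 1120 ± 73.6 CPM, with an interval from -0.04 to 0.28. Of their regulators, Stxbp5 (tomosyn), which competes for SNARE assembly, was 0.26 ± 0.071 higher (edgeR adjusted p = 0.105), and DESeq2 called it (adjusted p = 0.0289, from 0.0289 to 0.628 over the alternatives). Napa (alpha-SNAP), which with NSF takes used SNARE complexes apart, differed by -0.27 ± 0.080 (adjusted p = 0.138), while its paralog Napb was at 0.18 ± 0.091 and Nsf at 0.17 ± 0.091. Neither of the 2 Rab3 genes tested passed, at -0.27 ± 0.168 for Rab3b and 0.24 ± 0.158 for Rab3c.

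Among the 10 calcium-binding synaptotagmins and Doc2 genes, the median log2 difference was -0.06, and 4 were above 0 and 6 below. Syt1 was 0.16 ± 0.073 higher and Syt7, a sensor of slow and asynchronous release, 0.36 ± 0.133 higher, whereas Syt2, a fast sensor found mainly at hindbrain synapses, differed by -0.48 ± 0.186. None of the 3 passed (adjusted p = 0.322, 0.212 and 0.252). The largest estimate in the set was that of Syt17, a gene of low level. Syt17 was at 3.02 to 5.51 CPM in WT and at 13.6, 2.90, 4.18, 5.14 and 13.6 CPM in zQ175 libraries, with both high values in replicates 1 and 5 (log2 difference 0.96 ± 0.347, adjusted p = 0.207). Of the 5 endocytic genes, Snap91 (0.27 ± 0.092) and Synj1 (0.21 ± 0.080) were higher at an unadjusted p under 0.05, and none passed. Of the genes not given a value here, the smallest adjusted p was that of Syt12 (0.267, log2 difference -0.31 ± 0.126).

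**Figure D3:**
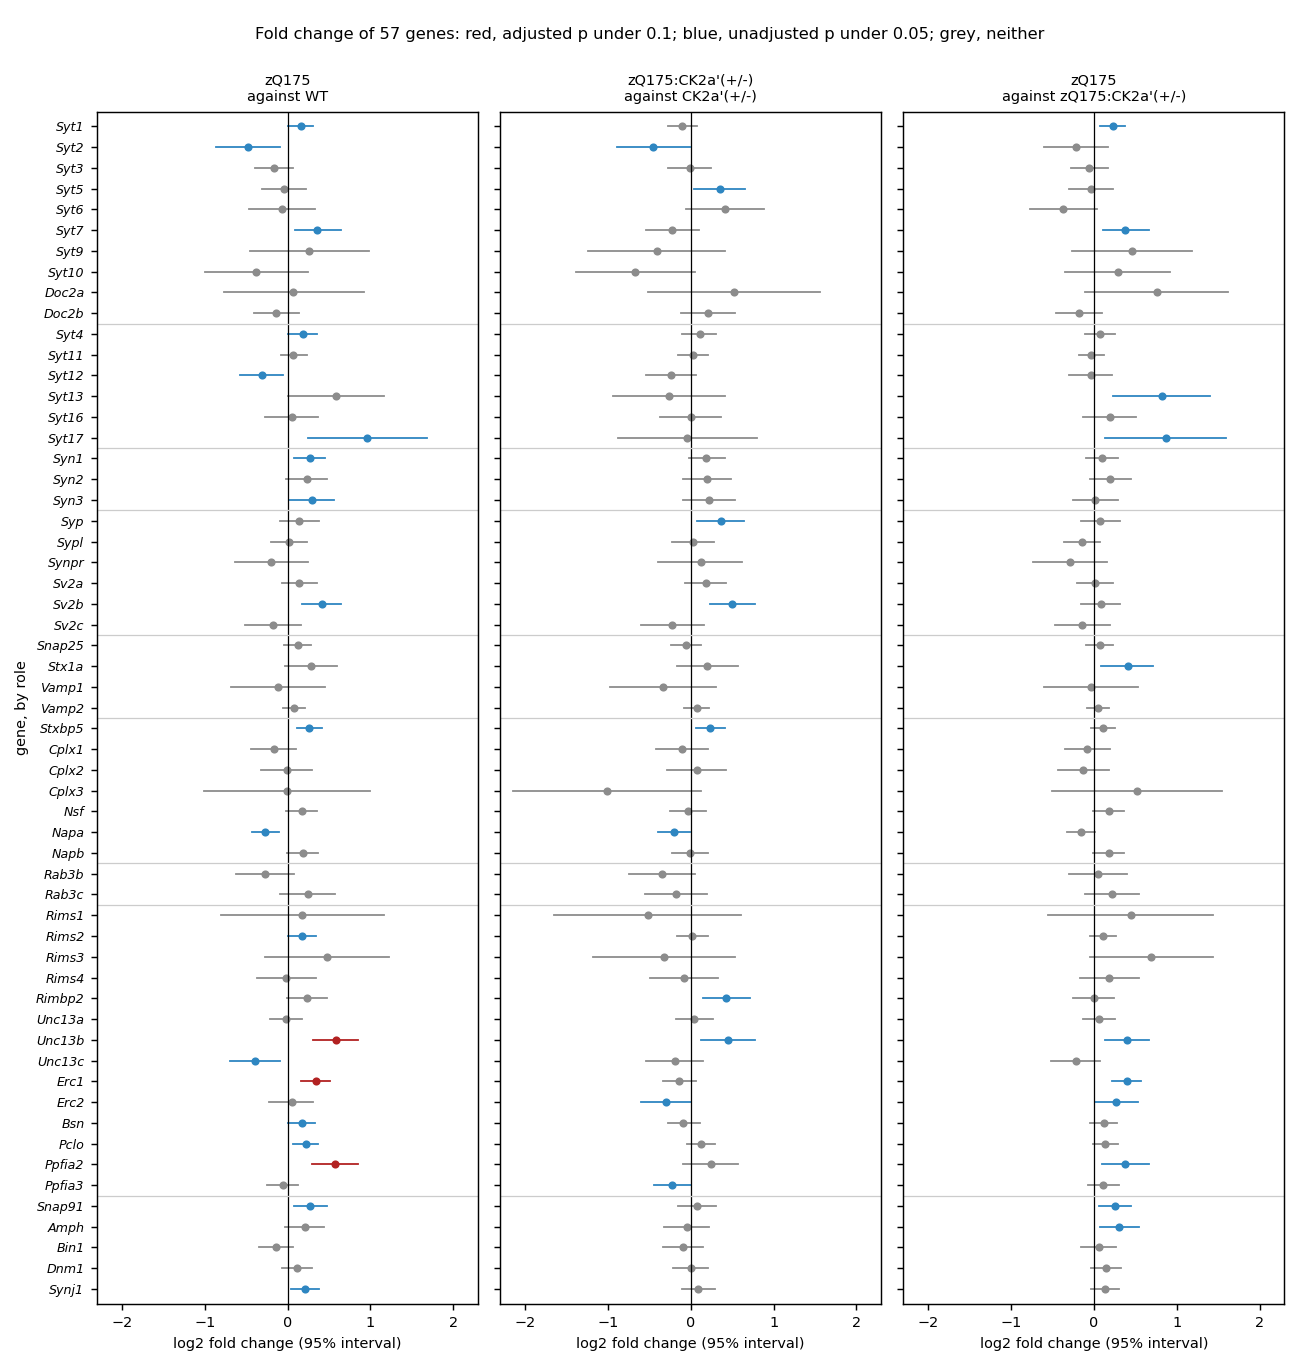
The plot of fold changes gives the log2 fold change and 95% interval of 57 genes, by role, in 3 comparisons, with red for an adjusted p under 0.1, blue for an unadjusted p under 0.05 and grey otherwise. Red is seen for Unc13b, Erc1 and Ppfia2 in zQ175 against WT and for no gene in the other panels, where zQ175 against zQ175:CK2a'(+/-) has 41 of 57 estimates above 0.

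The same allele was compared in mice with 1 CK2a' allele. Between zQ175:CK2a'(+/-) and CK2a'(+/-) mice (n = 5 and 3), none of the 57 genes passed by edgeR, against 0.593% of all genes, and 10 had an unadjusted p under 0.05, 6 of them higher (17.5% against 9.19% of all genes). DESeq2 called 1 gene, Sv2b (adjusted p = 0.0346, from 0.0150 to 0.423 over the alternatives). Sv2b was at 122, 107 and 119 CPM in CK2a'(+/-) and at 165, 153, 155, 197 and 152 CPM in zQ175:CK2a'(+/-) libraries. The groups were separate, and the log2 difference was 0.50 ± 0.133 (edgeR adjusted p = 0.132). Rimbp2, a RIM-binding protein that links the scaffold to calcium channels, was next at 0.43 ± 0.136 (adjusted p = 0.238), followed by Unc13b at 0.45 ± 0.152 (adjusted p = 0.291). Syp (0.36 ± 0.134, adjusted p = 0.364) and Stxbp5 (0.23 ± 0.082, adjusted p = 0.316) were also among the 6, as was Syt5 (0.35 ± 0.149, adjusted p = 0.455). The 4 lower genes were Napa (-0.20 ± 0.091), Syt2 (-0.45 ± 0.212) and the active zone genes Ppfia3 (-0.22 ± 0.104) and Erc2 (-0.30 ± 0.145), with adjusted p from 0.503 to 0.541. Of the 57 estimates, 26 were above 0 and 31 below, with a median of -0.01. Without zQ175 replicates 1 and 5, which belong to neither group but share the fit, 1 gene passed, Sv2b (adjusted p = 0.0873). In all, 7 of the 57 genes were higher without overlap (Pclo, Ppfia2, Stxbp5, Sv2b, Syp, Syt6 and Unc13b) against 3.86% of all genes, and none was lower against 4.48%. Marker sums also separated these groups, all lower in zQ175:CK2a'(+/-), for striatal projection neurons, oligodendrocytes and interneurons, as given above, and for astrocytes (6 genes, 2950 to 3250 against 3520 to 3950 CPM). Their part in the differences was not tested. Without the choroid plexus libraries none of the 57 genes passed, and Sv2b was at 0.56 (adjusted p = 0.152).

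Averaged over both CK2a' genotypes, 8 of the 57 genes differed with the zQ175 allele, or 14.0%, against 4.90% of all genes tested. Of these, 6 rose against 2.11% of all genes, and 2 fell against 2.78%. This comparison uses the zQ175 and WT libraries again and is not independent of the first. Sv2b rose by 0.45 ± 0.087 on the log2 scale (1.37-fold, edgeR adjusted p = 0.00923) and Unc13b by 0.52 ± 0.10 (1.43-fold, adjusted p = 0.0102). Stxbp5 rose by 0.25 ± 0.054 (adjusted p = 0.0201), Ppfia2 by 0.41 ± 0.104 (adjusted p = 0.0431), Rimbp2 by 0.33 ± 0.089 (adjusted p = 0.0519) and Syn1 by 0.23 ± 0.069 (adjusted p = 0.0824). The genes that rose thus came from the vesicle membrane, the vesicle tether, SNARE regulation and the active zone.

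Stxbp5 was at 92.1, 113, 94.8, 108 and 98.0 CPM in WT, 112, 114, 120, 127 and 132 CPM in zQ175, 97.4, 97.7 and 91.2 CPM in CK2a'(+/-) and 108, 111, 111, 121 and 111 CPM in zQ175:CK2a'(+/-) libraries. WT replicate 2 lay just above zQ175 replicate 1 and the other WT libraries lay below all zQ175 libraries, and the groups with 1 CK2a' allele did not overlap. Rimbp2 was at 102 to 136 CPM in WT, 107 to 165 in zQ175, 91.0 to 121 in CK2a'(+/-) and 118 to 163 in zQ175:CK2a'(+/-) libraries, so that both pairs of groups overlapped. Syn1 was at 255 to 313 CPM in WT, 290 to 392 in zQ175, 248 to 298 in CK2a'(+/-) and 286 to 351 in zQ175:CK2a'(+/-) libraries, again with overlap in both pairs. Under 17 of 27 alternatives Syn1 did not pass.

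Napa fell by 0.23 ± 0.061 on the log2 scale (edgeR adjusted p = 0.0451), with 114, 106, 109, 97.8 and 122 CPM in WT, 87.1, 78.9, 98.6, 98.5 and 94.0 CPM in zQ175, 108, 117 and 126 CPM in CK2a'(+/-) and 98.6, 101, 96.6, 114 and 97.9 CPM in zQ175:CK2a'(+/-) libraries. Single libraries overlapped in each pair, WT replicate 4 and zQ175:CK2a'(+/-) replicate 4. Syt2 fell by 0.47 ± 0.141 (adjusted p = 0.0831), from 89.7 to 111 CPM in WT to 46.2 to 95 CPM in zQ175, and from 89.1 to 129 CPM in CK2a'(+/-) to 57.7 to 115 CPM in zQ175:CK2a'(+/-) libraries. Its zQ175 values fell into a lower 3 and an upper 2 that lay within the WT range. Under 15 of 27 alternatives Syt2 did not pass. The summed level of striatal projection neuron markers was also lower in the zQ175 groups, as given above, and its part in these results was not tested.

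Most of these calls held without zQ175 replicates 1 and 5. The count was then 8 (742 over all genes, against 1024), Syn1 no longer passed (0.17, adjusted p = 0.231), Syn3 did (0.32, adjusted p = 0.0829), and Sv2b, Unc13b, Stxbp5, Ppfia2, Rimbp2, Napa and Syt2 passed (adjusted p from 0.00665 to 0.0826). Without the 4 libraries with choroid plexus markers, 2 passed, Sv2b (0.39, adjusted p = 0.0618) and Unc13b (0.52, adjusted p = 0.0904). Over all alternatives, the adjusted p of Sv2b ran from 0.00011 to 0.0618 and that of Unc13b from 0.000189 to 0.0904. The count was 4 without CK2a'(+/-) replicate 2, and 5 without CK2a'(+/-) replicate 1, CK2a'(+/-) replicate 3 or WT replicate 1. Over all genes the counts were 673, 897, 348 and 678 in the same order.

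Between zQ175:CK2a'(+/-) and WT mice (n = 5 each), none of the 57 genes passed by edgeR or by DESeq2, against 0.0143% of all genes by edgeR (3 genes) and 123 genes by DESeq2. At an unadjusted p under 0.05 there were 5 genes, Sv2b (0.32 ± 0.113, adjusted p = 0.400), Stxbp5 (0.15 ± 0.071) and Syn3 (0.27 ± 0.130) higher and Syt10 (-0.66 ± 0.303) and Syt12 (-0.27 ± 0.126) lower, or 8.77% against 9.13% of all genes. Syt10 ranged from 8.48 to 29.5 CPM in WT (median 13.0) and from 7.69 to 14.2 CPM in zQ175:CK2a'(+/-) libraries (median 10.6). Syt12 ranged from 18.6 to 26.2 CPM and from 15.6 to 20.2 CPM, and Syn3 from 24.3 to 36.0 CPM and from 32.2 to 39.8 CPM, with overlap for all 3 genes. The median log2 difference of the set was -0.01. None of the 57 genes passed without zQ175 replicates 1 and 5 or without the choroid plexus libraries, and in the latter case Sv2b was at 0.16 (adjusted p = 1, from 0.225 to 1 over the alternatives). The 3 genes that passed in zQ175 against WT had log2 differences here of 0.18 (95% interval from -0.09 to 0.45) for Unc13b, 0.19 (from -0.09 to 0.47) for Ppfia2 and -0.06 (from -0.24 to 0.11) for Erc1. These intervals for Unc13b and Ppfia2 include 0 and reach into those of zQ175 against WT, 0.31 to 0.85 and 0.29 to 0.85, while that for Erc1 ended below its zQ175 interval of 0.16 to 0.51. Both comparisons use the same 5 WT libraries. Ppfia2 was at 90, 78.7, 83.4, 80.5 and 82.8 CPM in zQ175:CK2a'(+/-) libraries, all above the WT libraries and, apart from replicate 1, below the zQ175 libraries. It was the only one of the 57 genes higher without overlap, against 0.937% of all genes, and none was lower against 0.899%.

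With the loss of 1 CK2a' allele and no knock-in, none of the 57 genes passed (CK2a'(+/-) against WT, n = 3 and 5, by edgeR and by DESeq2, against 0.0143% of all genes by edgeR, 0.00956% in the lower direction, and 11 genes by DESeq2). At an unadjusted p under 0.05, 3 were lower and none higher, or 5.26% against 4.48% of all genes. These were Syt5 at -0.36 ± 0.149, Doc2a at -1.20 ± 0.504 and Syp at -0.29 ± 0.133 (edgeR adjusted p = 0.999 for each). Syt5 was at 48.4, 40.3 and 61.7 CPM in CK2a'(+/-) and 51.3 to 73.3 CPM in WT libraries, with overlap. Doc2a, a calcium sensor of spontaneous release, was at 1.26, 1.18 and 1.33 CPM in CK2a'(+/-) and at 4.44, 2.46, 3.47, 2.93 and 1.25 CPM in WT libraries, so that WT replicate 5 lay among the CK2a'(+/-) values. It shares 39.4% of its exon length with Ino80e on the opposite strand (7038 counts against 778 for Doc2a), and reads of the pair may not be separated. Synaptophysin was at 317, 333 and 280 CPM in CK2a'(+/-) and 327, 289, 390, 405 and 477 CPM in WT libraries, with overlap at the low end. Stx1a (-0.33 ± 0.177) and Unc13b (-0.27 ± 0.152) were next. Without the choroid plexus libraries the differences were -0.21 for Stx1a and -0.49 for Unc13b, and none of the 57 genes passed then or without zQ175 replicates 1 and 5. None of the 57 genes separated the groups, against 1.43% of all genes upward and 1.76% downward.

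Within zQ175 mice, the number of CK2a' alleles was compared directly. None of the 57 genes passed by edgeR between zQ175 and zQ175:CK2a'(+/-) (n = 5 each), against 0.0143% of all genes in either direction and 0.00956% higher, and 11 had an unadjusted p under 0.05, all of them higher in mice with both CK2a' alleles (19.3% against 6.27% of all genes). The 11 were Erc1, Syt1, Unc13b, Syt13, Syt7, Ppfia2, Snap91, Stx1a, Amph, Syt17 and Erc2. The median log2 difference was 0.11 against 0.01 over all genes, with 41 genes above 0 and 16 below. The median was 0.05 without zQ175 replicates 1 and 5 and 0.08 without the choroid plexus libraries, and none of the 57 genes passed by edgeR in either case.

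Erc1 had the smallest p. It was at 70.4, 65.8, 64.4, 61.1 and 60.0 CPM in zQ175:CK2a'(+/-) libraries, all under the lowest zQ175 library (72.1 CPM). The log2 difference was 0.40 ± 0.084 (unadjusted p = 0.000106, edgeR adjusted p = 0.222), and DESeq2 called it (adjusted p = 0.0257, from 0.0257 to 0.924 over the alternatives). Without zQ175 replicates 1 and 5 it was 0.32 (adjusted p = 0.870), and without the choroid plexus libraries 0.41 (adjusted p = 0.924). Syt1 was at 764, 629, 665, 653 and 766 CPM in zQ175 and 618, 534, 605, 572 and 626 CPM in zQ175:CK2a'(+/-) libraries, with replicates 1 and 5 of zQ175 highest, a log2 difference of 0.23 ± 0.073 (adjusted p = 0.585). Stx1a, the plasma membrane syntaxin, was at 22.8, 24.7, 29.1, 21.8 and 28.3 CPM against 21.0, 17, 17.1, 20.9 and 19.5 CPM (0.41 ± 0.151, adjusted p = 0.644). These 3 genes were higher without overlap, against 0.564% of all genes, and none was lower against 0.574%.

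Other genes with a small p in this comparison were uneven among the zQ175 libraries. Syt13, a synaptotagmin without calcium binding, was at 99.0, 28.2, 41.0, 36.8 and 50.0 CPM in zQ175 and 21.2 to 42.8 CPM in zQ175:CK2a'(+/-) libraries, with replicate 1 highest (0.82 ± 0.282, adjusted p = 0.608). Without zQ175 replicates 1 and 5 its log2 difference was 0.28. Syt7 was at 312, 195, 224, 192 and 259 CPM against 152 to 208 CPM, again with replicates 1 and 5 highest (0.38 ± 0.133, adjusted p = 0.614), and the difference was 0.16 without them. Unc13b was 0.40 ± 0.129 higher (adjusted p = 0.591), and 0.19 without zQ175 replicates 1 and 5.

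Whether the zQ175 difference depended on the CK2a' genotype was tested by the interaction. None of the 57 genes passed by edgeR or by DESeq2 (0.00478% of all genes, or 1 gene, by edgeR and 19 genes by DESeq2), and 4 had an unadjusted p under 0.05 (7.02% against 5.39% of all genes), all with a smaller zQ175 difference in mice with 1 CK2a' allele. Erc1 again had the smallest p, with an interaction of -0.48 ± 0.127 on the log2 scale (unadjusted p = 0.00115, edgeR adjusted p = 0.811). Its zQ175 difference was 0.34 with both CK2a' alleles and -0.14 ± 0.096 with 1. Syt7 followed at -0.58 ± 0.201 (adjusted p = 0.843), then Syt1 at -0.26 ± 0.111 and Bsn at -0.25 ± 0.122 (adjusted p = 0.916 for both). Without zQ175 replicates 1 and 5 the interaction was -0.40 for Erc1 and -0.37 for Syt7, and without the choroid plexus libraries -0.42 and -0.44, and none of the 57 genes passed. The median over the 57 genes was -0.07 with all libraries, and -0.02 and -0.01 in these cases. The opposite sign was seen for Syt5 (0.40, adjusted p = 0.916). For Sv2b the interaction was 0.09 with a 95% interval from -0.26 to 0.45, for Stxbp5 -0.02 (from -0.25 to 0.20) and for Unc13b -0.13 (from -0.54 to 0.28).

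The genes differed in how far they spread among mice of the same genotype. The median within-group SD of the 57 genes was 0.21 on the log2 scale, against 0.31 over all genes tested. Vamp2 (0.07), Stxbp5 (0.09), Pclo, Syt1 and Syt11 (0.10 each) were the most even. Cplx3 (0.68) and Rims3 (0.66) were the least even. Cplx3, Rims1 (0.61) and Syt10 (0.54) were highest in CK2a'(+/-) replicate 2, zQ175 replicate 3 and WT replicate 2. Rims3, Syt9 (0.63), Doc2a (0.59), Syt17 (0.58), Syt13 and Vamp1 (0.51 each) all had their highest value in zQ175 replicate 1. This library had the highest thalamic marker sum, and a link to that sum was not tested. Rims3 was at 229 CPM there and at 37.3 to 96.3 CPM in the other 17 libraries, and Rab3c was at 615 CPM there against 275 to 400 CPM.

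Extreme values of the set gathered in few libraries. zQ175 replicate 1 held the highest value of 19 of the 57 genes (33.3%, against 10.7% of all genes tested) and zQ175 replicate 5 that of 12 (21.1% against 7.76%). The lowest value lay in zQ175:CK2a'(+/-) replicate 2 for 16 genes (28.1% against 4.77%), the library with the smallest total count and a choroid plexus marker sum of 3110 CPM. zQ175 replicate 1 also held the lowest value of 8 genes (14.0% against 9.5% of all genes), among them Cplx2 (480 CPM against 714 to 1050 in the other 17 libraries), Synpr, Syt6, Syt10 and Doc2b.

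**Figure D4:**
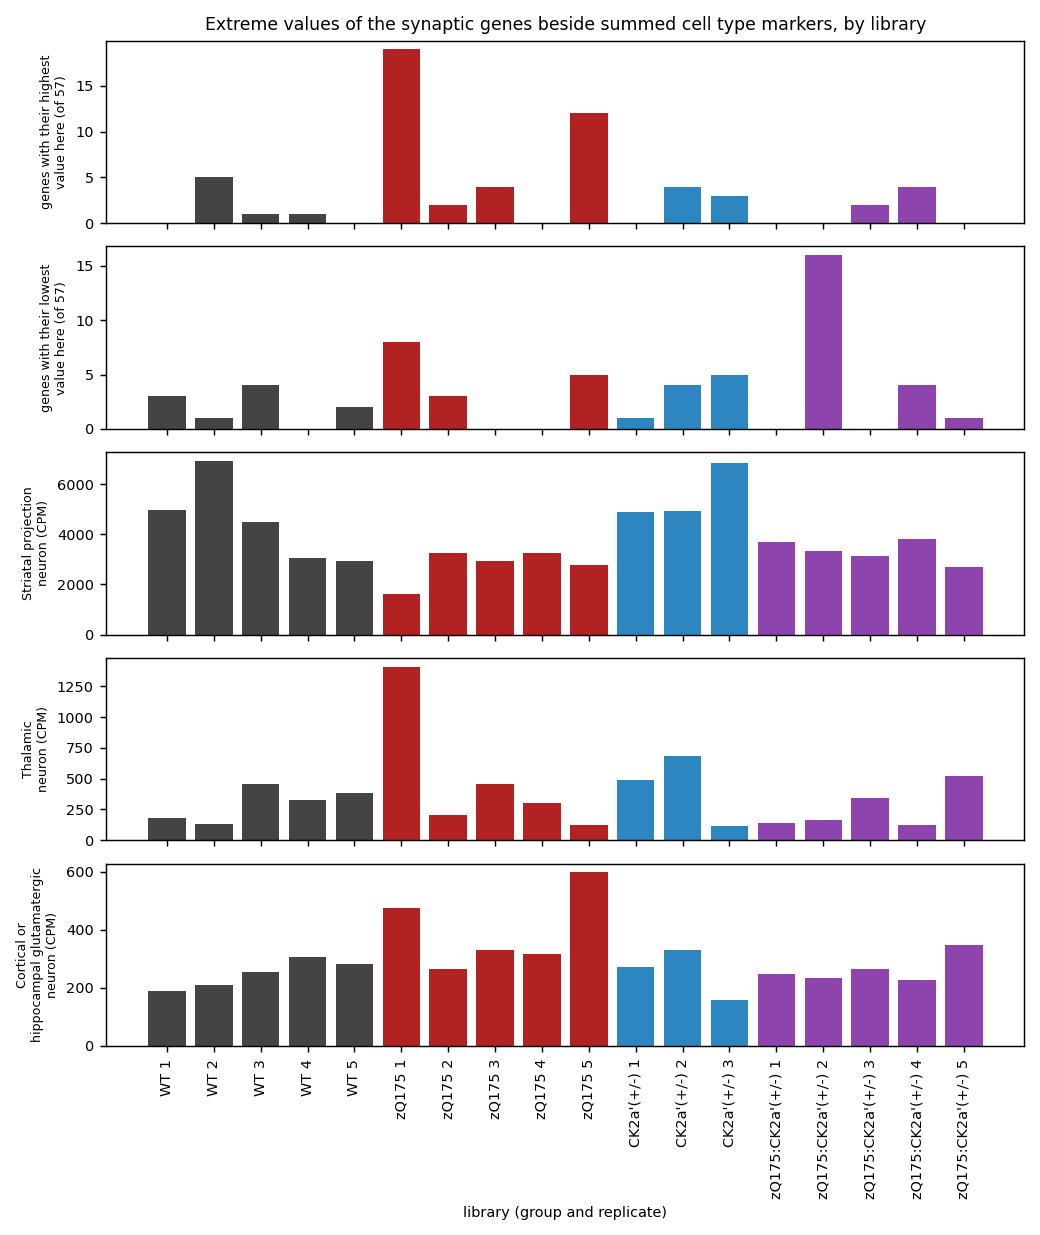
The bar plots show, for each of the 18 libraries, the number of the 57 genes with their highest or lowest value there and the summed CPM of striatal projection neuron, thalamic and cortical or hippocampal glutamatergic markers, coloured by genotype. zQ175 replicate 1 has 19 highest values and a thalamic sum of 1410 CPM, and zQ175 replicate 5 has 12 highest values and a glutamatergic sum of 598 CPM.

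**Figure D5:**
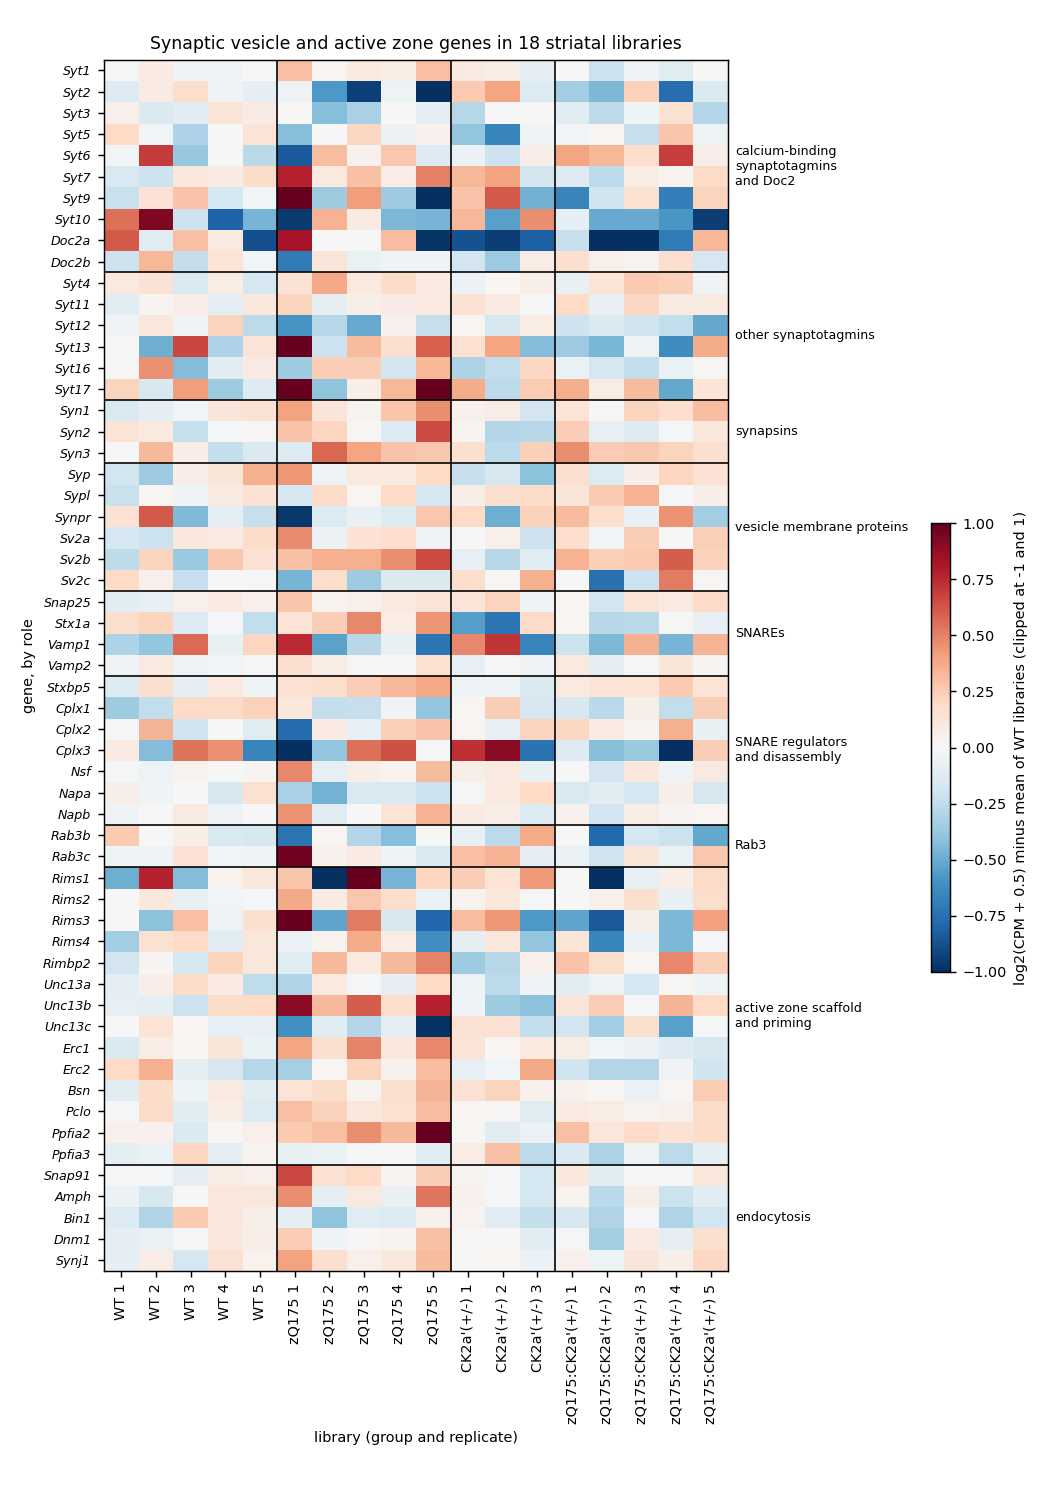
The heat map shows each of the 57 genes by role in rows and the 18 libraries in columns, coloured by log2(CPM + 0.5) minus the mean of the WT libraries and clipped at -1 and 1. Most cells are pale, red is densest in zQ175 replicates 1 and 5, and Unc13b and Ppfia2 are red or pale red in the zQ175 columns.

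Other genes of the presynaptic terminal were read beside the set. Of 63 listed (further SNARE and Rab effectors, vesicle proteins, clathrin adaptors and neurexins), 61 were tested. In zQ175 against WT, 1 passed, Clta, a clathrin light chain, at -0.33 ± 0.085 (edgeR adjusted p = 0.0902), with a list median of 0.04, which is 1.64% of the list against 1.10% of all genes. At an unadjusted p under 0.05 there were 19, or 31.1% of the list, beside 35.1% of the 57 genes and 13.9% of all genes. For the zQ175 allele averaged over both CK2a' genotypes, 3 passed, Rph3a (rabphilin, a Rab3 effector, 0.32 ± 0.069, adjusted p = 0.0186), Cask (0.24 ± 0.069, adjusted p = 0.0672) and Lin7b (-0.52 ± 0.149, adjusted p = 0.0663), which is 4.92% of the list against 4.90% of all genes. CASK and LIN7 proteins form a presynaptic scaffold complex. In the other 5 comparisons none passed by edgeR, with 4 to 12 at an unadjusted p under 0.05. The 12 were in zQ175 against zQ175:CK2a'(+/-), 19.7% of the list beside 19.3% of the 57 genes and 6.27% of all genes. Against WT, 7 of the 61 were under 0.05 in zQ175:CK2a'(+/-) (9.13% of all genes) and 4 in CK2a'(+/-) (4.48% of all genes). Between zQ175:CK2a'(+/-) and CK2a'(+/-) there were 5 of the 61, against 9.19% of all genes. The interaction also had 5, against 5.39% of all genes.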

How the data were processed

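Striatal total RNA was prepared with a stranded Takara pico kit, and the counts per gene were deposited by the authors as raw whole numbers. The submitters' processing notes name FastQC, Trimmomatic, HISAT2 2.1.0, GRCm38 and Subread 1.6.2. The counting strand setting is not given in the sources used here. From the counts, 1 edgeR 4.0.16 quasi-likelihood fit (R 4.3.3, limma 3.58.1) of 18 libraries was made with TMM scaling, filterByExpr and genotype as the only term, and p-values were adjusted by Benjamini-Hochberg over 20914 genes. Total counts were 13612381 to 22702547, and p-values test differences between groups against the spread between mice, 1 library each. Members and lists were chosen with earlier results of these data known. Named were genes passing an FDR of 0.1, the 5 smallest p per comparison and the highest gene per kilobase of each role. Gene positions are from GENCODE on GRCm38, promoters from RefSeq. Alternatives were DESeq2 1.42.0, its size factors, other filters, the compared groups alone, a replicate block, Xist as covariate, a robust fit, an FDR of 0.05 and leaving out each replicate. Leaving out zQ175 replicates 1 and 5, or 4 libraries with choroid plexus markers, was chosen after seeing the data. The fit was tested on simulated data.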

Additional observations from a re-analysis of the deposited data

Results flagged for a closer look

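Groups of 5 libraries were examined for the genes that passed or had 1 of the 5 smallest p in a comparison. Of 60 such groups, 6 had a highest or lowest library whose gap to the nearest other exceeded 0.71 of the group's range. For a single unselected group chance gives about 1 in 20. These genes were picked from the same data and share libraries, so that rate is no baseline for the 6. Ppfia2 was at 173 CPM in zQ175 replicate 5 against 87.6 to 101 CPM in the other zQ175 libraries, and at 66.0 CPM in WT replicate 3 against 73.4 to 75.3 CPM. In zQ175:CK2a'(+/-) replicate 4, Stxbp5 was at 121 CPM against 108 to 111, Sv2b at 197 CPM against 152 to 165 and Napa at 114 CPM against 96.6 to 101 in the other 4 libraries. Syt1 was at 658 CPM in WT replicate 2 against 604 to 620 CPM. No cause was tested.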

How the results depend on the processing

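Among genes that passed or had 1 of the 5 smallest p in a comparison, none reversed in that comparison under the alternatives run. The 3 genes called in zQ175 against WT became 9 with DESeq2, 5 with a robust fit, 1 with Xist as covariate, and 0 with the compared groups alone, at an FDR of 0.05, without zQ175 replicates 1 and 5 or without the 4 choroid plexus libraries. Over all genes the count moved from 230 to 855, 313, 156, 0, 51, 0 and 1. For zQ175 against zQ175:CK2a'(+/-), 1 gene was called by DESeq2 and 1 with no filter on low counts (39 and 51 over all genes, against 3). For zQ175:CK2a'(+/-) against CK2a'(+/-), 1 was called by DESeq2, 1 with no filter, 1 without zQ175 replicates 1 and 5 and 3 with the compared groups alone (322, 297, 222 and 461 over all genes, against 124). The 8 called for the mean zQ175 effect became 5 at an FDR of 0.05 and 2 without the choroid plexus libraries (469 and 126 of 1024 over all genes). Leaving out each replicate gave 0 to 7 genes in zQ175 against WT, 4 to 10 for the mean effect, 0 to 1 in zQ175:CK2a'(+/-) against CK2a'(+/-) and 0 in the other comparisons. Same-numbered libraries did not deviate together (24 pairs, r from -0.167 to 0.149, 0 of 18 libraries closest to their own number). The labels do not say whether the numbers pair the mice, and such correlations cannot settle it. With the replicate block, 1 gene was called in zQ175 against WT (98 over all genes) and 6 for the mean effect (519 over all genes). The causes were not tested. Rab3a, Rims1, Doc2a and Cplx3 were limited by low counts.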
